A study of Mus musculus with 8 samples.

Results

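Nodal, a secreted ligand of the TGF-beta family, and 8 genes that act with it or with its relatives, the bone morphogenetic proteins (BMPs), were described in single-cell RNA-seq of mouse embryonic stem (mES) cells with and without CX-5461, a drug that stops RNA polymerase I from making rRNA. The genes were Nodal, its co-receptor Tdgf1 (Cripto), its secreted antagonists Lefty1 and Lefty2, the ligand Bmp4, the intracellular inhibitor Smad7, and Id1, Id2 and Id3, known targets of BMP signalling. They make up 9 of the 54146 gene rows of each count table and were found by gene symbol. The list was drawn up with earlier results of these data in view, so every value in control and CX-5461 cells below is a description of genes selected on that contrast.

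Nodal and the activins bind type I and type II receptors that phosphorylate Smad2 and Smad3, and Nodal needs Tdgf1 as a co-receptor. Lefty1 and Lefty2 block Nodal and are themselves transcribed in response to it, so that they form a negative feedback loop. BMPs signal through Smad1, Smad5 and Smad9 to the Id genes, which encode inhibitors of helix-loop-helix transcription factors and, in cultured mES cells, are known for restraining differentiation alongside LIF.

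Both conditions were mES cells that the labels describe as derived from the inner cell mass, kept for 2 days on gelatin with mouse embryonic fibroblast feeders in medium with LIF and the 2 inhibitors known as 2i. The groups were untreated control cells and cells given CX-5461. Neither labels nor methods give the dose and time for this experiment. The labels list 4 samples per condition, but the study describes a single biological replicate. Barcodes carry no sample or sequence, so each condition was taken as 1 library and the barcodes that libraries share could not be counted. There was thus no replicate error and no test between conditions. All intervals are exact 95% intervals that cover counting error only.

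The control library held 3838 barcodes with 49610287 unique molecular identifiers (UMIs, each a captured RNA molecule), and CX-5461 had 4922 barcodes with 69841836. ES-like cells, defined by their markers, were split into deep cells, which had 5000 UMIs or more and no more than 0.1 of them on mitochondrially encoded (mt-) genes, and high-mitochondrial cells, in which that share was above 0.1. Deep cells numbered 2453 in control and 4010 in CX-5461, with medians of 15684 and 14704 UMIs per cell. The high-mitochondrial cells, 828 and 703, were shallower and unequal in depth, with medians of 2018 and 5381 UMIs. Pou5f1, the core pluripotency factor used in the gate, was detected in 99.8% of the deep cells of control and 99.5% of those of CX-5461. Col1a2, a fibroblast collagen, stood there at 1.14 and 0.974 CPM (UMIs per 1000000 UMIs of the cell class), against 763 and 1246 CPM in the 209 and 164 fibroblast-like cells of the cultures. The 10 fibroblast markers summed to 204 CPM in deep control cells and 413 CPM in deep CX-5461 cells, with none of them at 0. The 8 markers of 2-cell-like cells summed to 4.43 and 26.6 CPM, the 5 keratinocyte markers to 1.11 and 43.2 CPM, and the 7 primitive endoderm markers to 1.28 and 4.27 CPM. The part of these differences in the results was not tested.

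Lefty1 and Lefty2 lie on the same strand of chromosome 1 (GRCm38), Lefty2 at chr1:180893108-180899103 and Lefty1 at chr1:180935022-180938400, with 35918 bases between them. Their coding sequences, 1104 bases each in the annotation, are identical at 1014 positions (91.8%), so reads from the coding part could be shared, whereas the last 300 bases of the transcripts, where 3′ libraries take most reads, align with only 138 identical bases among 268 aligned. Of all 30-base words in the annotated transcripts, 407 were common to both, 25.6% of those of Lefty1 and 16.7% of those of Lefty2. The authors marked some counts as shared with other genes, and none of these fell on any of the 9 genes.

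In deep ES-like cells the Lefty genes stood apart from the other 7. Lefty1 was higher in CX-5461 by 32.1-fold, Lefty2 by 8.74-fold and Id2 by 2.09-fold, and no gene was lower by 2-fold. Among all 11674 genes that reached 200 UMIs in the 2 libraries together, 19.8% were at least 2-fold higher and 3.49% at least 2-fold lower. Lefty1 and Id2, with 76 and 92 UMIs in control, passed this minimum only through CX-5461. After scaling to the total, the median gene was 0.36 higher on the log2 scale, so log2 ratios are also given relative to it. The source of this shift was not tested. Closest to the 2-fold limit were Id2 inside it and Id3, at 1.66-fold, outside it. Relative to the median gene Lefty1 was 4.65 and Lefty2 2.77 higher on the log2 scale, and Id2 0.71, so that Id2 was under 2-fold on that scale and under TMM scaling.

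The ligands changed little. Nodal, at chr10:61417972-61425338, had 315 UMIs in control and 644 in CX-5461, which is 7.45 (95% interval 6.65 to 8.33) and 10.5 (9.66 to 11.3) CPM. Its ratio was 1.40 (1.22 to 1.61), and relative to the median gene it was 0.13 higher on the log2 scale. Bmp4, at chr14:46383520-46390669, had 9.66 (8.74 to 10.6) CPM in control and 7.63 (6.95 to 8.35) in CX-5461. It was the only one of the 9 genes that was lower before relative scaling, with a ratio of 0.79 (0.69 to 0.90) and a log2 ratio of -0.70 relative to the median gene.

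Tdgf1, at chr9:110939603-110946158, gave 10783 UMIs in control and 17366 in CX-5461. Its level was 255 (250 to 260) CPM in control and 282 (278 to 286) in CX-5461, a ratio of 1.10 (1.08 to 1.13) that turned to -0.22 on the log2 scale relative to the median gene. The spread of Tdgf1 between cells was wider in CX-5461. Deep cells without a Tdgf1 UMI made up 142 of 2453 in control and 560 of 4010 in CX-5461, while cells with 10 or more numbered 189 and 377.

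Among the inhibitors, Lefty1 had 76 UMIs in control and 3558 in CX-5461, which is 1.80 (1.42 to 2.25) and 57.7 (55.9 to 59.7) CPM. The interval of its ratio ran from 25.6 to 40.8, and it ranked 117th from the highest of the 11674 genes. Lefty2 had 217 UMIs in control and 2765 in CX-5461, 5.14 (4.48 to 5.87) and 44.9 (43.2 to 46.6) CPM. Its ratio of 8.74 (7.61 to 10.1) ranked 341st. In deep cells Lefty2 thus gave more UMIs than Lefty1 in control and fewer in CX-5461. Even so, more deep CX-5461 cells held a UMI of Lefty2 (1204) than of Lefty1 (879). Smad7, at chr18:75367529-75395935, encodes an inhibitory Smad that competes at the type I receptors and is itself a target of the pathway. It stood at 25.9 (24.4 to 27.5) CPM in control and 27.1 (25.9 to 28.5) in CX-5461, a ratio of 1.05 (0.97 to 1.13), which lay below the median gene by 0.29 on the log2 scale.

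The Id genes differed among themselves. Id3, at chr4:136143497-136145755, was at 75.1 (72.5 to 77.7) CPM in control and 124.9 (122.1 to 127.7) in CX-5461, a ratio of 1.66 (1.60 to 1.73) and 0.38 above the median gene on the log2 scale. Id1, at chr2:152736251-152737410, was at 22.6 (21.2 to 24.1) and 25.01 (23.8 to 26.3) CPM. Its ratio of 1.10 (1.02 to 1.20) turned to -0.22 on the log2 scale relative to the median gene. Id2, at chr12:25093799-25097140, was rare in deep cells, with 92 and 281 UMIs, or 2.18 (1.76 to 2.67) and 4.56 (4.04 to 5.13) CPM. Its ratio was 2.09 (1.65 to 2.68). In control 2 cells held 19.6% of its UMIs, which raised the control level and so lowered this ratio. The Id genes were also feeder transcripts: in fibroblast-like cells Id1 stood at 61.6 and 120.7 CPM, Id2 at 42.2 and 80.4 CPM, and Id3 at 236 and 422 CPM in control and CX-5461. Fibroblast-like cells held 63.9% of all Id2 UMIs in control and 50.2% in CX-5461.

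**Figure D1:**
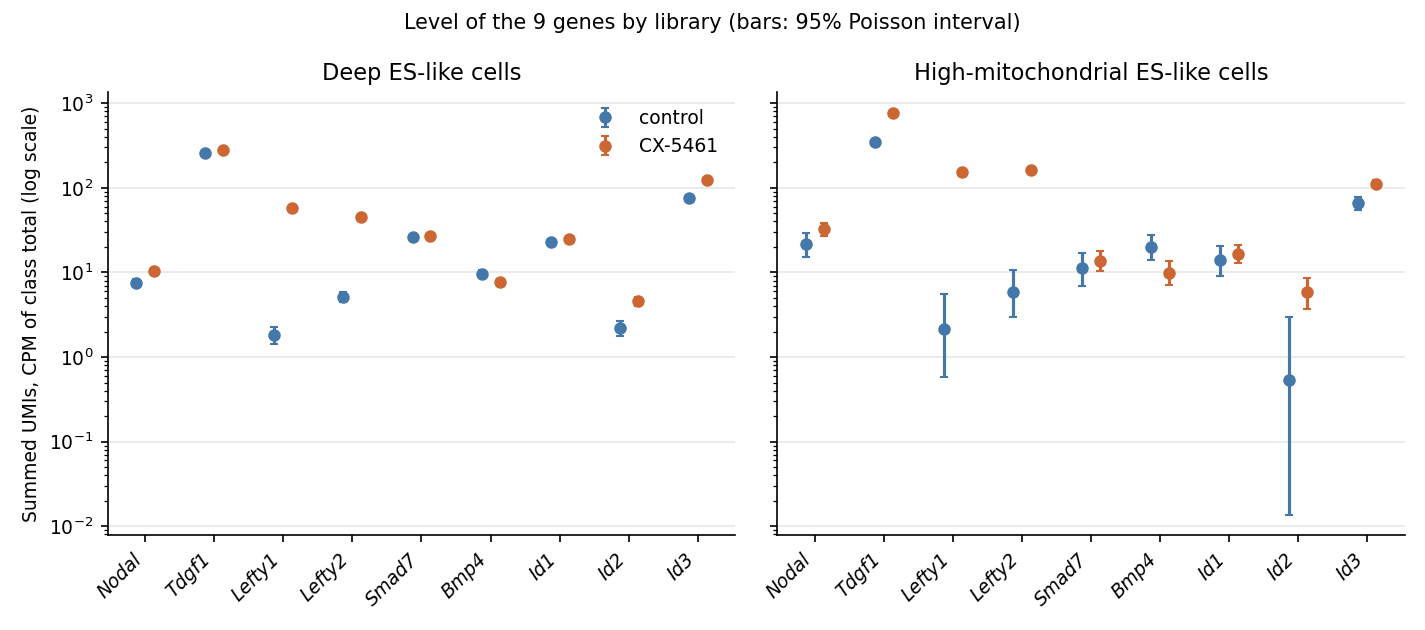
Level of each of the 9 genes (CPM of the class total, log scale) in control (blue) and CX-5461 (orange), with deep ES-like cells on the left and high-mitochondrial ES-like cells on the right. Points are 1 library each and bars are 95% Poisson intervals; Lefty1 and Lefty2 show the widest gaps between the libraries in both panels.

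The share of deep cells with a Lefty UMI showed the same difference. A Lefty1 UMI was found in 2.49% (1.91 to 3.18%) of control and 21.9% (20.6 to 23.2%) of CX-5461 deep cells, and a Lefty2 UMI in 6.52% (5.58 to 7.57%) and 30.02% (28.6 to 31.5%). To set depth equal, shares were also computed for 5000 UMIs per cell, as the mean over all random draws of that many UMIs from each cell, which left out no deep cell and 18 and 1 of the fibroblast-like cells. At that depth Lefty1 was seen in 0.959% of control and 12.9% of CX-5461 cells. In fibroblast-like cells thinned alike, whose medians were 20935 and 23434 UMIs before thinning, the Lefty1 share was 2.71% in control and 3.29% in CX-5461, above the share in control ES-like cells and below that in CX-5461. Feeders themselves carried 5.39 CPM of Lefty1 in control, against 1.80 in deep ES-like cells, and whether the few control UMIs were expression or free RNA was not tested. Lefty2 was seen in 2.29% (1.73 to 2.95%) of control and 15.0% of CX-5461 cells at 5000 UMIs. In fibroblast-like cells the share was 0.288% (0.0133 to 2.88%) and 0.865% (0.0155 to 3.37%). These lay below the CX-5461 ES-like share, but their intervals overlapped that of control ES-like cells.

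For the other genes the shares moved less. Id3 was seen at 5000 UMIs in 28.9% (27.2 to 30.8%) of control and 41.8% (40.3 to 43.4%) of CX-5461 deep cells, but in 57.5% and 75.2% of fibroblast-like cells. Tdgf1 went the other way from its level: 69.0% (67.1 to 70.8%) of control and 64.9% (63.4 to 66.3%) of CX-5461 cells had a UMI, and no order is read from this share. Nodal was seen in 3.70% (3.00 to 4.54%) and 5.15% (4.50 to 5.89%), and Bmp4 in 4.74% (3.92 to 5.64%) and 3.85% (3.29 to 4.51%), against 6.50% and 6.65% in fibroblast-like cells. Id1 shares were 10.0% and 10.5% and Smad7 shares 12.1% and 12.8%, with overlapping intervals. The Id2 share was 0.974% and 2.33%, far under the 18.9% and 27.1% of fibroblast-like cells. Feeders carried more Id1, Id2, Id3 and Bmp4 than deep ES-like cells did, so they give no background level for these genes there. The part of free feeder RNA in these shares was not tested.

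Lefty transcripts were concentrated in a minority of the CX-5461 cells. Of 4010 deep CX-5461 cells, 225 (5.61%, 4.92 to 6.37%) had 5 or more Lefty1 UMIs, and they held 67.3% of the Lefty1 UMIs. The highest cell had 44. In control, the highest of 2453 deep cells had 4 Lefty1 UMIs, and a count of 0 cells with 5 or more allows a share of up to 0.15%. For Lefty2, 126 CX-5461 cells (3.14%, 2.62 to 3.73%) had 5 or more UMIs and held 33.9% of the total, with 20 in the highest, against 1 control cell with 8. The ratio of variance to mean over CX-5461 deep cells was 10.1 for Lefty1, 3.70 for Lefty2, 3.50 for Tdgf1 and 2.1 for Id3.

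**Figure D2:**
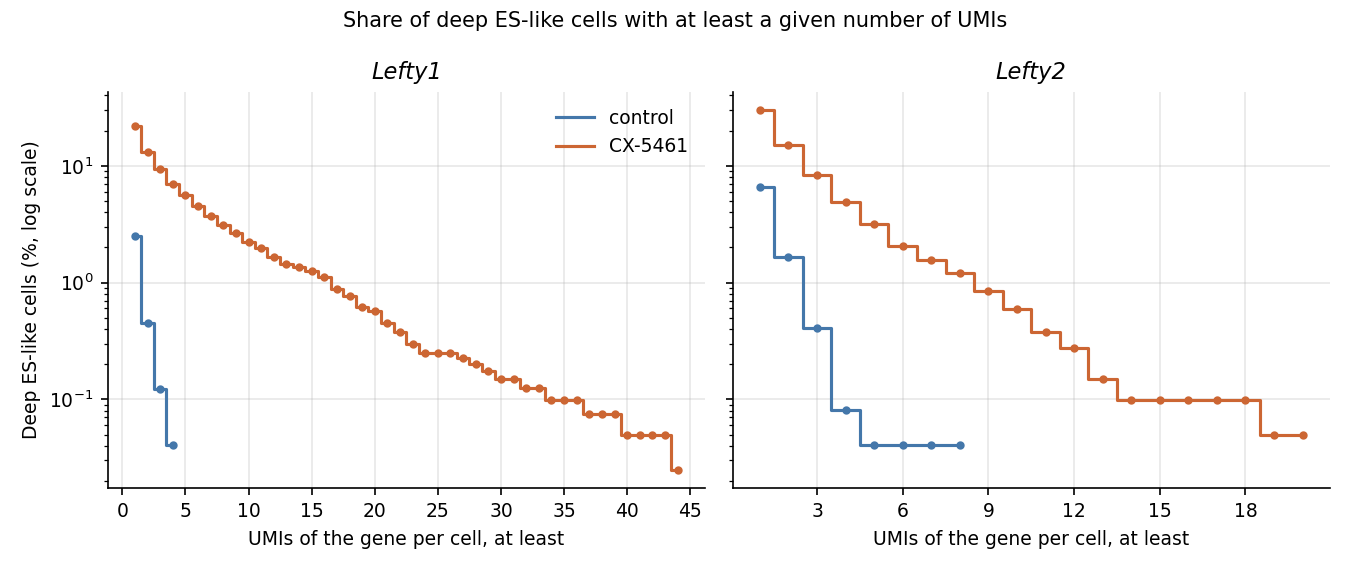
Percentage of deep ES-like cells (log scale) with at least the number of Lefty1 (left) or Lefty2 (right) UMIs on the horizontal axis, in control (blue) and CX-5461 (orange), at the cells' own depth. The control lines end at 4 and 8 UMIs, and the CX-5461 lines reach 44 and 20.

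Within the CX-5461 library the Lefty genes occurred in the same cells more often than the product of their shares gives. A UMI of both was found in 514 deep cells, 58.5% of the cells with Lefty1 and 42.7% of those with Lefty2, which is 1.95 times the 264 cells from the product. At 5000 UMIs per cell it was 191.5 cells on average over draws against 77.5, or 2.47 times. In control, 15 deep cells had both against 3.98 from the product, or 3.77 times. These cells were too few to be thinned with any precision, so the libraries are not ranked by this ratio. The Pearson correlation of log-normalized values across deep cells was 0.12 in 2453 control cells and 0.42 in 4010 CX-5461 cells. Cells of a library share its depth and free RNA, so no p-value goes with these.

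No other pair of the 9 genes came near this. At 5000 UMIs, 33 other pairs in CX-5461 had at least 5 cells from the product, and their ratios of observed cells to that product ran from 0.701 for Smad7 with Id2 to 1.26 for Lefty2 with Bmp4, with a median of 1.04. In control 22 pairs ran from 0.824 to 1.31, with a median of 1.02. Nodal and its antagonists were detected together about as often as the product gives, and their correlation in CX-5461 cells was 0.02 for Lefty1 and 0.01 for Lefty2.

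**Figure D3:**
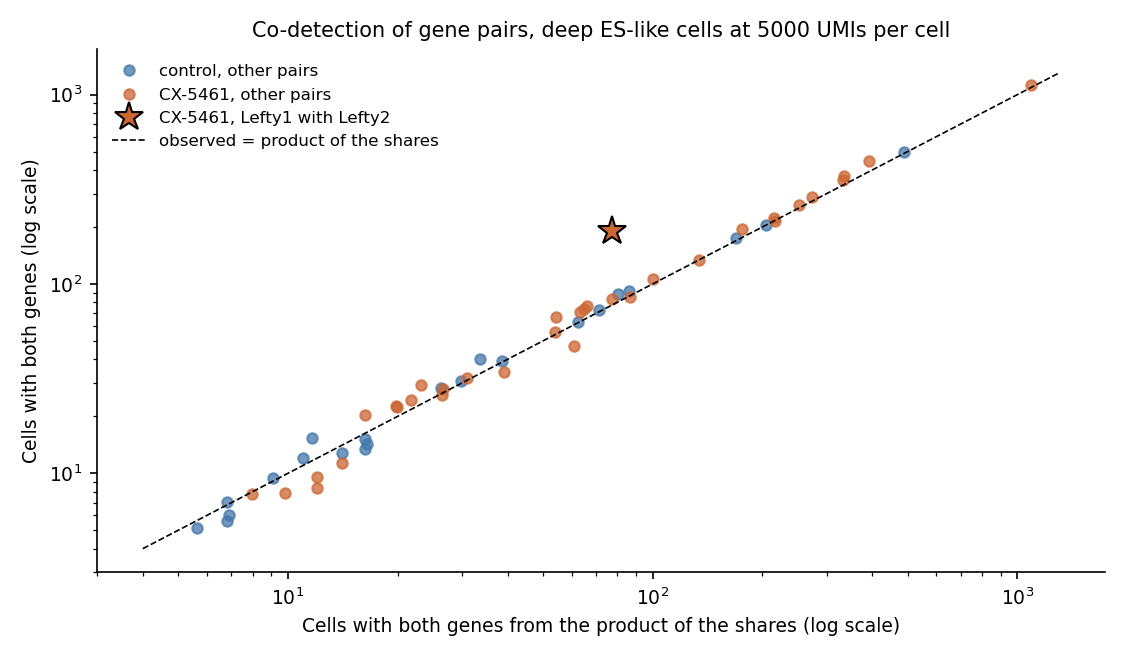
Deep ES-like cells with a UMI of both genes of a pair against the number from the product of their shares, both on log scales, for pairs of the 9 genes with at least 5 cells from the product, at 5000 UMIs per cell. The dashed line marks equality; Lefty1 with Lefty2 in CX-5461 (star) lies at 191.5 cells against 77.5, and the other pairs (circles) run along the line.

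Deep CX-5461 cells were next set out by their summed Lefty UMIs at 5000 UMIs per cell, as means over 20 random draws. On average 3086 cells had none, 515 had 1, 315 had 2 to 4 and 93.3 had 5 or more, and these classes had close median depths (14568, 15257, 15310 and 14555 UMIs before thinning) and close median mt- shares, from 4.00 to 4.04%. Tdgf1 was at 259 (251 to 267) CPM in cells without a Lefty UMI, 311 (290 to 334) in those with 1, 336 (309 to 367) in those with 2 to 4, and 344 (292 to 400) in those with 5 or more. The co-receptor was thus higher in CX-5461 cells with Lefty transcripts. In control it was 265 (256 to 275) CPM without and 259 (209 to 320) with 1 Lefty UMI, on 68.5 cells, too few to tell whether the libraries differ in this. Nodal stood at 10.6, 9.88, 9.99 and 15.1 CPM in the CX-5461 classes, and the interval of the last (6.03 to 30.9) spans the others. Id3 ran from 123 to 136 CPM and Smad7 from 26.6 to 33.0 CPM, within overlapping intervals.

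In high-mitochondrial cells the Lefty genes were again higher in CX-5461 than in control. Lefty1 had 4 UMIs in the control cells of this class and 626 in those of CX-5461, 2.14 (0.584 to 5.49) and 152 (141 to 165) CPM. The ratio of 71.1 had a wide interval, 27.6 to 262, set by the 4 control UMIs. Lefty2 had 11 and 668 UMIs, 5.89 (2.94 to 10.5) and 163 (150 to 175) CPM, a ratio of 27.6 (15.3 to 55.5). They ranked 10th and 19th from the highest among the 3435 genes with at least 200 UMIs in these cells, of which 18.3% were at least 2-fold higher and 7.71% at least 2-fold lower in CX-5461. Both reached 200 UMIs only through CX-5461, so that minimum bears on these ranks.

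The 10 fibroblast markers summed to 333 CPM in the control cells of this class, with Col3a1 and Lum at 0, and to 563 CPM in those of CX-5461, with Lum at 0, and their part was not tested.

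Only 4 of the 9 genes reached 200 UMIs in the high-mitochondrial cells, and 3 of these were at least 2-fold higher. Of the 3, Lefty1 and Lefty2 passed the minimum only through CX-5461, so no result is read from this count. The third was Tdgf1, at 346 (319 to 373) CPM in control and 757 (730 to 784) in CX-5461, a ratio of 2.19 (2.01 to 2.39) that was under 2-fold relative to the median gene of the class, which was 0.37 higher on the log2 scale. Id3 was at 65.9 (54.8 to 78.6) and 112 (102 to 123) CPM, a ratio of 1.70 (1.39 to 2.09). Of the 5 with fewer UMIs, Nodal was at 21.4 (15.3 to 29.2) and 32.4 (27.1 to 38.4) CPM and Bmp4 at 19.8 (13.96 to 27.3) and 9.98 (7.16 to 13.5), a ratio of 0.50 (0.315 to 0.807). Smad7 and Id1 had ratios of 1.21 (0.72 to 2.11) and 1.19 (0.75 to 1.95). Id2 had 1 UMI in control and 24 in CX-5461, a ratio of 10.9 whose counting interval ran from 1.78 to 448.

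Control cells of this class were shallow, so shares were set at 1500 UMIs per cell, which kept 700 of 828 control and 701 of 703 CX-5461 cells. Lefty1 was seen in 0.270% of control and 10.7% (8.51 to 13.2%) of CX-5461 cells at that depth, and in 0.483% and 21.2% before thinning. Lefty2 was seen in 0.864% and 15.4% (12.8 to 18.3%), and in 1.09% and 31.9% before thinning. Fibroblast-like cells at 1500 UMIs gave Lefty1 shares of 0.752% (0.116 to 3.41%) and 1.03% (0.148 to 4.34%), and Lefty2 shares of 0.0790% and 0.337%. The Lefty1 intervals overlapped that of control ES-like cells (0.0346 to 1.03%), so no order is read from them. Tdgf1 was seen in 39.0% (35.4 to 42.7%) of control and 54.4% (50.6 to 58.1%) of CX-5461 cells. The Lefty genes again occurred together: 105 CX-5461 cells had both, 2.21 times the product of the shares, and 2.73 times at 1500 UMIs.

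Within a library, high-mitochondrial cells could be set against deep cells of the same culture. Nodal was higher in them in both libraries, by 2.87-fold (2.02 to 4.00) in control and 3.10-fold (2.55 to 3.74) in CX-5461. Lefty1 was higher by 2.64-fold (2.42 to 2.87) and Lefty2 by 3.62-fold (3.32 to 3.94) in CX-5461. In control the ratios were 1.19 (0.317 to 3.18) and 1.15 (0.564 to 2.09), on 4 and 11 UMIs. Tdgf1 was higher by 1.35-fold (1.249 to 1.47) in control and 2.69-fold (2.58 to 2.79) in CX-5461. Smad7 was lower in both, at 0.43 (0.268 to 0.668) and 0.50 (0.378 to 0.655) of its level in deep cells, and so was Id1, at 0.62 (0.400 to 0.907) and 0.66 (0.511 to 0.844). Id3 stayed near its deep level, at 0.88 and 0.90. Bmp4 was higher by 2.05-fold (1.43 to 2.88) in control and 1.31-fold (0.926 to 1.80) in CX-5461, and Id2 was at 0.25 (0.00616 to 1.41) and 1.28 (0.807 to 1.95). With the mt- UMIs left out of the total, the CX-5461 ratios were 3.07 for Lefty1, 4.22 for Lefty2, 3.61 for Nodal and 3.13 for Tdgf1.

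These are shares of the RNA captured, and the cells of the 2 classes held unequal totals, a mean of 15368 UMIs per deep and 5846 per high-mitochondrial CX-5461 cell. Counted per cell, Lefty1 was at 0.887 UMIs in deep and 0.890 in high-mitochondrial CX-5461 cells, Lefty2 at 0.690 and 0.950, Nodal at 0.161 and 0.189, and Tdgf1 at 4.33 and 4.42. Per cell the level of Lefty1 and Tdgf1 was thus almost equal between the classes in CX-5461. Id3 was at 1.92 and 0.656 there and Smad7 at 0.417 and 0.0797. In control, where the means were 17226 and 2254 UMIs, Nodal was at 0.128 and 0.0483 UMIs per cell. Control Tdgf1 was at 4.396 and 0.779 and control Lefty1 at 0.03098 and 0.00483. Both were thus lower per cell in the high-mitochondrial cells of control, Lefty1 on only 4 UMIs.

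Because the high-mitochondrial cells were shallower, cells of 2000 to 8000 UMIs were also compared alone. This window did not make depth equal. Cells up to and above 0.1 had medians of 4029.5 and 2670 UMIs in control and 6421 and 5097 in CX-5461. In CX-5461, Lefty1 was at 49.4 (35.1 to 67.5) CPM in 131 cells up to 0.1 and 132.9 (120.1 to 146.7) in 582 above it. Lefty2 was at 65.8 (49.2 to 86.3) and 153 (139 to 168) CPM, Nodal at 13.9 (6.95 to 24.9) and 32.2 (26.1 to 39.4), and Tdgf1 at 322 (283 to 364) and 717 (687 to 748). In control cells of this window Nodal was at 9.83 (5.73 to 15.7) and 23.9 (16.0 to 34.4) CPM, whereas Tdgf1 went from 427 (396 to 459) to 365 (332 to 401). Control Smad7 was at 19.7 (13.6 to 27.5) and 13.2 (7.54 to 21.4) CPM, and control Id1 at 13.9 and 13.2. CX-5461 Smad7 was at 20.3 (11.6 to 32.9) and 14.1 (10.2 to 19.1), and Id1 at 20.3 and 14.8. Bmp4 was at 18.5 and 16.5 CPM in control and 2.53 (0.307 to 9.15) and 10.7 (7.35 to 15.2) in CX-5461. The intervals of Smad7, Id1 and Bmp4 overlapped in each library, so no order is read for them in this window.

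Across 5 bins of the mt- share, from up to 0.02 to above 0.2, CX-5461 Lefty1 was at 10.8, 57.7, 61.2, 133 and 208 CPM and Lefty2 at 18.0, 44.3, 52.3, 158 and 176 CPM. The lowest bin held only 49 CX-5461 cells. Nodal in control was at 7.0, 7.99, 11.8, 22.5 and 30.9 CPM over the same bins, the last from 47 cells. Several other levels moved with the mt- share. Between the bin of 0.02 to 0.05, which held 3482 CX-5461 cells, and the highest bin, Hspa5, an endoplasmic reticulum chaperone, went from 136 to 906 CPM in CX-5461 and from 90.7 to 577 CPM in control. Over the same bins of CX-5461 the 12 genes listed for the endoplasmic reticulum and integrated stress responses went from 838 to 2447 CPM in sum, the 10 p53 targets from 2495 to 1498 CPM, and Pou5f1 from 762 to 445 CPM. Their part in the Lefty and Nodal values was not tested.

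**Figure D4:**
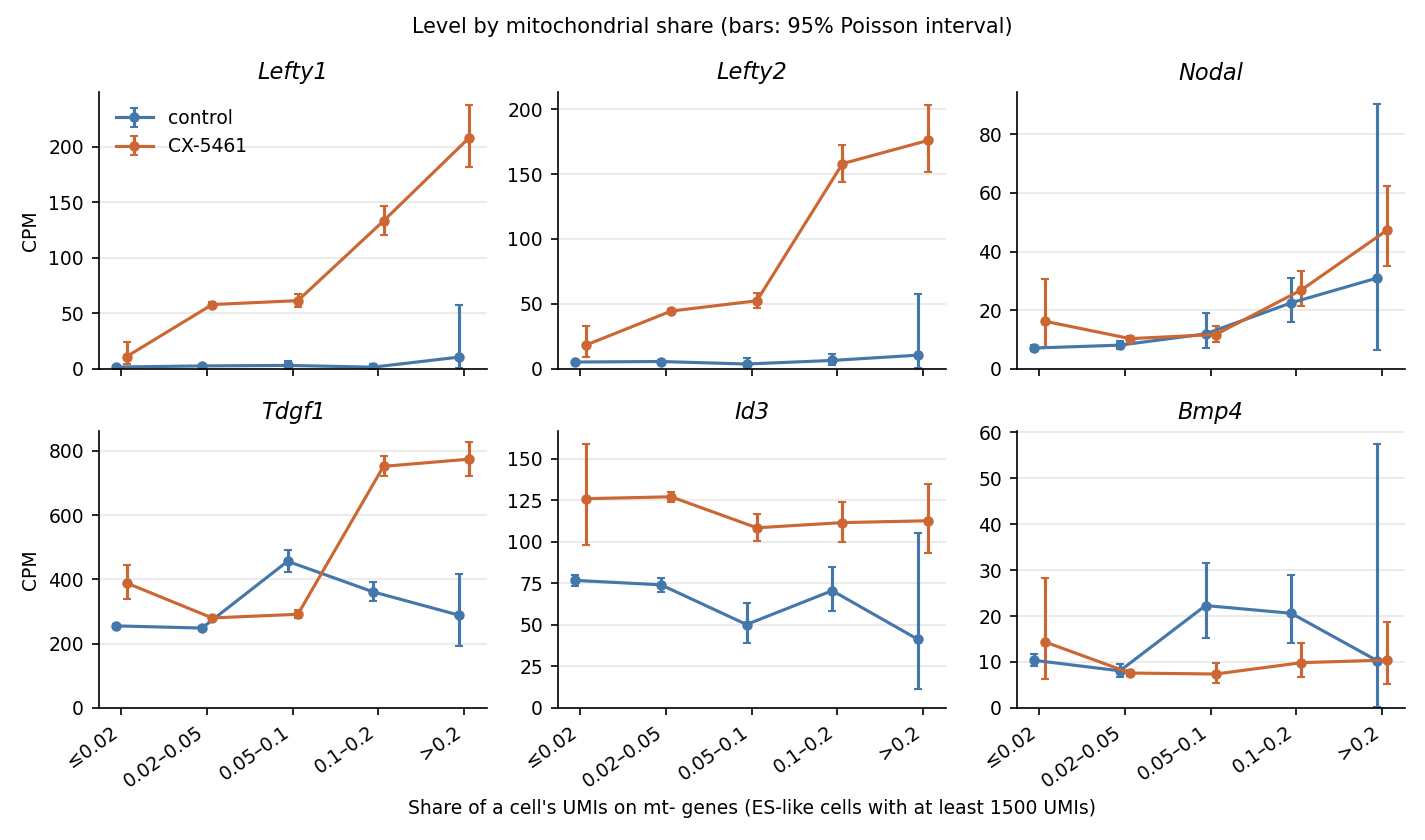
Levels (CPM) of 6 of the genes in ES-like cells with at least 1500 UMIs, by the share of a cell's UMIs on mt- genes, in control (blue) and CX-5461 (orange), with 95% Poisson bars. Lefty1 and Lefty2 stand at 208 and 176 CPM in the CX-5461 cells above 0.2, Nodal is higher above 0.1 in both libraries, and Id3 in CX-5461 stays between 108 and 127 CPM.

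For genes whose cell-to-cell pattern was most like a member, likeness was taken as the smaller of the Pearson correlations in the 2 libraries across deep cells, over 9040 genes seen in at least 5% of them. For Lefty2 the likest genes included Gm14406 (0.06 and 0.06) and Pcolce2 (0.06 and 0.12). Tdgf1 was closest to Rps4l (0.21 and 0.25), Cd9 and Trh. Id3 was closest to Mkrn1 (0.19 and 0.11), Utf1 and Zfp42, and Id1 to Trh (0.10 and 0.12), Mkrn1 and H2afz. Bmp4 was closest to Mkrn1 (0.16 and 0.11), Trh and Malat1, and Smad7 to Mkrn1, Hdgf and Tbx3, none above 0.09 in either library. Nodal reached no more than 0.06, with Gcdh, Txnrd1 and Snapc3, which in such sparse counts is no finding. Lefty1 and Id2 were seen in under 5% of control cells.

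Within 250000 bases of the Lefty genes, 11 other genes had at least 200 UMIs, of which 4 were at least 2-fold higher in CX-5461 and 0 lower, beside 19.8% and 3.49% of all genes, so that no regional pattern is read from the count. These 4, named after their values were seen, were Tmem63a (18.5-fold, 0.568 to 10.5 CPM), Ephx1 (16.1-fold, 1.11 to 17.9 CPM), Gm37086 (4.01-fold) and Sde2 (2.17-fold).

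The wider TGF-beta family was taken from lists of ligands, receptors, Smads, inhibitors, processing enzymes and BMP targets. Of 78 listed genes, 41 had at least 200 UMIs in deep cells, of which 11 were at least 2-fold higher and 1 lower. Their median log2 ratio was 0.43, against 0.36 over all genes. Without the 9 genes it was 0.42, with 8 of 32 higher and 1 lower. By role, 4 of 9 inhibitors were higher (Lefty1, Lefty2, Fst and Twsg1), 3 of 6 BMP targets (Id2, Id4 and Msx2), 2 of 9 receptors (Bmpr2 and Acvr1), 1 of 4 ligands (Bmp7) and 1 of 11 Smads and cofactors (Smad3), beside the 19.8% of all genes. Of these 11, all but Lefty2 had under 200 UMIs in control and passed the minimum only through CX-5461. Relative to the median gene 4 of the 11 were under 2-fold (Twsg1, Id2, Msx2 and Acvr1), which leaves 2 fewer BMP targets. The share of all genes past 2-fold on that scale was not computed. Of the 2 processing enzymes 1 was lower, Furin.

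Among them, Bmp7, a BMP ligand, had the highest ratio after the Lefty genes, 2.65 CPM in control and 20.5 in CX-5461, or 7.74-fold (6.37 to 9.47). The rest were named after their values were seen. Fst, which binds and blocks activin, was at 1.75 and 4.87 CPM, and Smad3, a signal carrier of Nodal and activin, at 1.85 and 5.21 CPM. The receptor gene Bmpr2 was at 1.51 and 4.48 CPM and the BMP target Id4 at 1.40 and 3.98 CPM. Furin, a protease that cleaves ligand precursors, was at 12.5 and 4.88 CPM, a ratio of 0.39 (0.34 to 0.45). The abundant ligand Gdf3 was at 116.7 and 104.7 CPM and the abundant corepressor Tgif1 at 100.04 and 100.9 CPM.

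**Figure D5:**
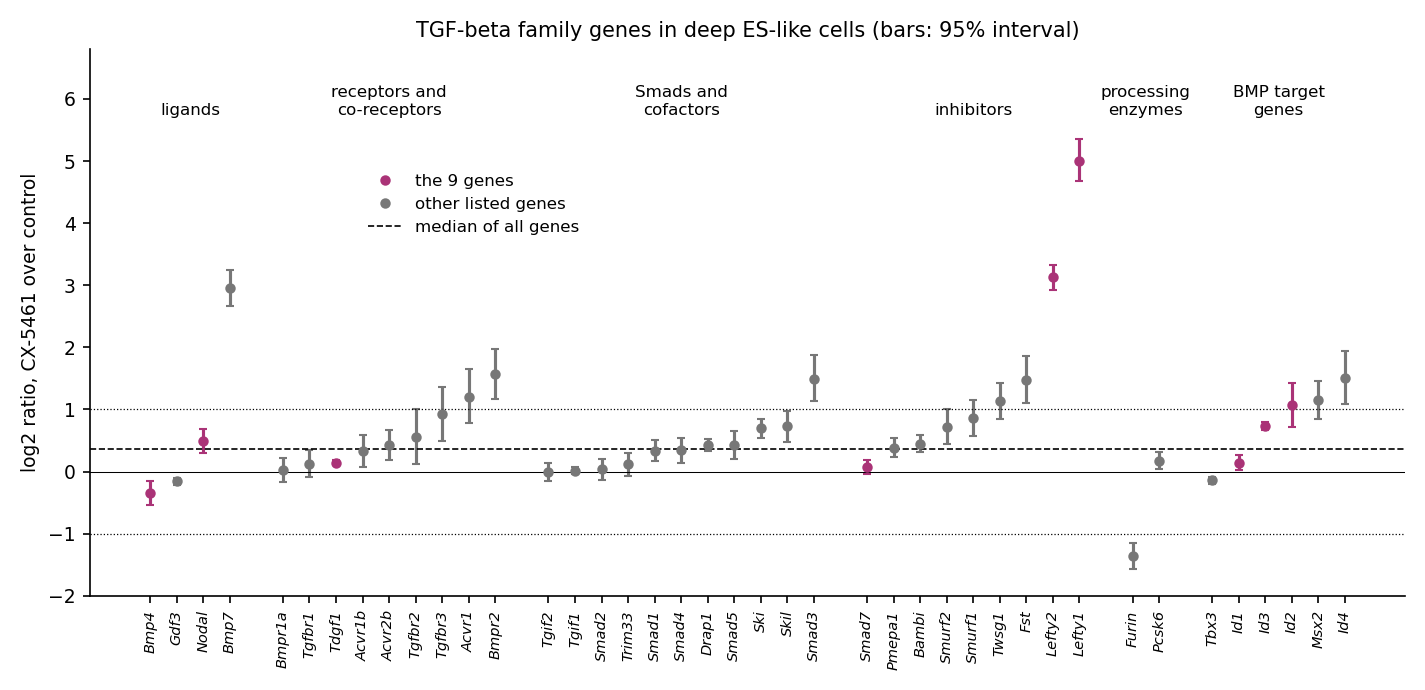
Log2 ratio of CX-5461 over control in deep ES-like cells for the 41 TGF-beta family genes with at least 200 UMIs, grouped by role, with 95% counting intervals; the 9 genes are in purple. The dashed line marks the median of all genes (0.36) and the dotted lines 2-fold; Lefty1, Lefty2 and Bmp7 stand highest and Furin lowest.

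Other lists gave a setting for these values, beside the 19.8% of all genes at least 2-fold higher and 3.49% at least 2-fold lower. Their ratios and counts are not relative to the median gene. Of 10 p53 targets with enough UMIs, 7 were at least 2-fold higher and 0 lower, among them Pmaip1, which promotes apoptosis (20.7-fold), Mdm2, the p53 ubiquitin ligase (4.02-fold), and Cdkn1a, a cell cycle inhibitor (3.99-fold), then Ccng1 (3.92-fold), Phlda3 (3.39-fold) and Trp53inp1 (3.01-fold). Of 12 stress response genes 4 were higher, with the transcription factors Atf3 at 7.22-fold and Ddit3 at 3.66-fold, and 1 was lower. None of 10 LIF and STAT3 targets passed 2-fold in either direction. Of 9 ERK targets 1 was higher and 1 lower, and of 7 WNT targets 3 were higher and 1 lower, Cdx1, a homeobox gene, at 0.34 of control.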

How the data were processed

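The authors made digital expression matrices from 10x Genomics 3′ libraries with a published droplet pipeline and deposited UMI counts without normalization, with genes in rows and barcodes in columns, as 1 table per condition. The methods name Bowtie as the aligner of that pipeline, replaced for repeat sequences only, and its version is not given in the sources used here. The submitters' processing notes name Seurat 2.3.4 and mm10. The study's filters (at least 500 UMIs, at most 0.2 of UMIs on mt- genes) are not applied in the tables. The fibroblast feeders were still in them.

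Symbols and positions were those of GENCODE on GRCm38, which held 52480 of the 54146 identifiers with their version and 54079 without it. An ES-like cell had at least 3 ES-marker UMIs and more of these than fibroblast-marker UMIs, and a fibroblast-like cell at least 10 of the latter and at least as many as of the former. The markers fixed for the gate were Pou5f1, Sox2, Zfp42, Dppa5a, Tdh, Utf1, Esrrb, Fgf4, Nanog and Dppa4 for ES cells, and Col1a1, Col1a2, Col3a1, Lum, Postn, Thy1, Tagln, Acta2, Cald1 and Timp1 for fibroblasts. No clustering or doublet caller was used. Counts were summed per class and divided by the class total (CPM). Intervals at 95% were Poisson for sums, conditional binomial for ratios and Clopper-Pearson for shares; those of thinned shares used the expected number of cells, rounded. Thinned shares are hypergeometric means over all draws. Genes with fewer than 200 UMIs over both libraries were left out of the counts of calls, and called means past 2-fold, since 1 library per condition allows no test. A gene can pass this minimum through 1 library alone, which bears on the counts of calls and on ranks.

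The 9 genes and the gene lists were chosen with earlier results of these data known. The text names the 9 genes, up to 12 listed genes with the largest changes past 2-fold, the 3 genes most like each of the 9, and Pou5f1 and Col1a2; others are said to be named after their values were seen. Of the genes under this rule, 1 is not reported here. The ratio calculation was tested on simulated data. Python 3.11.15, numpy 2.4.6, scipy 1.17.1, pandas 2.3.3, Biopython 1.88, and R 4.3.3 with edgeR 4.0.16 for the TMM alternative were used.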

Additional observations from a re-analysis of the deposited data

Results flagged for a closer look

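Barcodes outside every cell class, 348 in control and 45 in CX-5461, held 3 of the genes at levels whose 95% interval in CX-5461 lay above that in control. Lefty2 was at 64.8 CPM in CX-5461 (12 UMIs) against 3.85 in control (4 UMIs). Id1 was at 70.2 CPM (13 UMIs) against 9.64 (10 UMIs), and Id3 at 221 CPM (41 UMIs) against 63.6 (66 UMIs). Fibroblast markers summed to 2300 CPM in these CX-5461 barcodes and 425 CPM in the control ones, and their part in the values was not tested. Lefty1 (16.2 against 0.964 CPM, on 3 and 1 UMIs) and Id2 (37.8 against 12.5 CPM, on 7 and 13 UMIs) were also higher, with overlapping intervals.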

How the results depend on the processing

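No paired analysis was possible because each condition is 1 library with no map from cells to samples. Of the summary values recomputed under other settings, 54 stayed close and 10 moved, and no gene's call reversed. The remaining values were single-gene ratios and counts of genes past 2-fold per gene list, of which 297 stayed and 58 moved. A ratio stayed if it lay inside its main interval, and a count if it was close to its main value. In deep cells the log2 ratio ran from 4.19 to 5.65 for Lefty1, 2.77 to 4.32 for Lefty2, 0.71 to 1.94 for Id2, 0.38 to 0.76 for Id3 and -1.34 to -0.28 for Bmp4. Nodal (-0.20 to 0.54), Tdgf1 (-0.22 to 0.21), Smad7 (-0.29 to 0.15) and Id1 (-0.22 to 0.56) changed sign in 1 or 2 of 10 settings. Restricting to cells with no fibroblast-marker UMI left 184 control and 53 CX-5461 deep cells, so that 2 genes kept 200 UMIs and 0 of them passed 2-fold, since Lefty1 (9 and 43 UMIs) and Lefty2 (10 and 52 UMIs) fell under the minimum. The same limit in high-mitochondrial cells left 432 and 67 cells and 1 gene past 2-fold, Tdgf1. Scaling to the median gene (a shift of 0.36 on the log2 scale in deep cells) or by TMM (0.35) each took Id2 under 2-fold and left 7 TGF-beta family genes at least 2-fold higher in place of 11. A minimum of 50 UMIs gave 2 lower, and no minimum gave 20 higher and 7 lower, in both cases with more genes tested. The shares of all genes past 2-fold were not computed under these settings, so nothing about the family is read from these counts. Thinning to 1500 UMIs left 3 genes (Lefty1, Lefty2 and Id2) whose share of high-mitochondrial cells was at least 2-fold higher, in place of 7, and raised the ratio of cells with both Lefty genes to the product of their shares in those of CX-5461 from 2.21 to 2.73. Thinning to 5000 raised it in deep cells from 1.95 to 2.47. Depth limits the rare genes most: Lefty1 and Id2 in control high-mitochondrial cells rest on 4 and 1 UMIs.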
